A study of Mus musculus with 106 samples.

Results

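The 10 genes described here encode transcription factors of cerebellar granule cells: *Neurod1*, *Neurod2*, *Zic1*, *Zic2*, *Zic4*, *Pax6*, *Etv1*, *Nfia*, *Nfib* and *Nfix*. They were taken as a named list and found through their Ensembl identifiers, 10 of the 55401 mouse genes in the deposited count table, and all 10 passed the filter on low counts in each comparison made. The study measured RNA held by ribosomes of chosen neuron classes in a mouse model of Huntington's disease (HD). HD mice were heterozygous for a huntingtin allele with an expanded CAG repeat (*Hdh* Q7/Q200), and controls were *Hdh* Q7/Q7. In the lines that the methods describe, controls were littermates, and all mice were about 9 months old and on the 129S4 background. Every mouse of these lines, control or HD, also carried 1 *Rpl22-HA* flox allele and 1 Cre allele. Ribosomes of cells with Cre thus bear an HA tag and can be pulled down (immunoprecipitation, IP). Cre was driven from *Gad2* (GABAergic neurons), from the parvalbumin gene (PV), from *Slc17a6*, which encodes vGluT2 (glutamatergic neurons), or from *Sst* (SST), a line that the labels give and the methods do not describe. SST control mice are named in a BR and a Z series, and SST HD mice in the BR series alone. Cre acts for good, so the tag marks each cell whose driver was ever on, also early in life. The tissue was the cerebellum or the cerebrum, here a hemisphere without cerebellum and olfactory bulb, and PV IPs were pooled from duplicate pull-downs of a mouse. In all there were 106 libraries from 45 mice: 67 IP libraries and 39 of total RNA from the same tissues. The HD comparisons set 6 HD against 5 control mice for cerebellar vGluT2 IPs, 6 against 6 for cerebellar Gad2 IPs and for both of these lines in the cerebrum, 5 against 6 for PV IPs, 4 against 5 for SST IPs, 7 against 7 for cerebellar total RNA and 9 against 9 for cerebral total RNA of the Gad2, PV and vGluT2 lines.

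Granule cells are the small glutamatergic neurons that fill the inner layer of the cerebellar cortex and send parallel fibers to Purkinje cells. They come from the rhombic lip, divide near the surface of the young cerebellum and move inward as they mature, under a sequence of transcription factors of which several stay on in the adult. Purkinje cells and the inhibitory interneurons arise from another zone, where *Ptf1a* acts.

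The list holds members of 5 families. *Neurod1* (ENSMUSG00000034701, chr2:79452521-79456751, minus strand, GRCm38) and *Neurod2* (ENSMUSG00000038255, chr11:98325415-98329648, minus strand) encode basic helix-loop-helix activators of neuronal differentiation. *Zic1* (ENSMUSG00000032368, chr9:91358058-91365810, minus strand), *Zic2* (ENSMUSG00000061524, chr14:122475435-122479852, plus strand) and *Zic4* (ENSMUSG00000036972, chr9:91362413-91389348, plus strand) encode zinc finger proteins that act in granule cell precursors. *Zic1* and *Zic4* overlap on opposite strands, and the libraries were stranded. *Pax6* (ENSMUSG00000027168, chr2:105668900-105697364, plus strand) encodes a paired domain and homeodomain protein of the rhombic lip. *Etv1* (ENSMUSG00000004151, chr12:38779380-38870484, plus strand) encodes an ETS factor that turns on genes of maturing granule cells. *Nfia* (ENSMUSG00000028565, chr4:97772734-98118874, plus strand), *Nfib* (ENSMUSG00000008575, chr4:82290173-82705750, minus strand) and *Nfix* (ENSMUSG00000001911, chr8:84699876-84800344, minus strand) encode nuclear factor I proteins, which act in late granule cell differentiation and also in glia.

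Some libraries stood apart. The granule cell genes *Gabra6*, *Cbln3* and *Fat2* together ran from 0.271 to 362 CPM (counts scaled to the size of each library) in the 69 cerebral libraries, with a median of 4.30, and 17 of these were over 20 CPM. The highest were HD PV IP replicate 3 at 362 CPM and control PV IP replicate 2 at 141 CPM, against 5348 to 7243 CPM in control cerebellar vGluT2 IPs. Cerebral fits holding any of those 17 libraries were also run without them. For HD effects the value of *Neurod1* in PV IPs without these libraries is given below. Those of the other members are counted among the alternatives and not given one by one. In cerebellar total RNA of the vGluT2 line, the slope of counts on transcript GC content was −0.639 to −0.122 (log2 per 10 percentage points) in controls and 0.245 to 0.627 in HD mice, so the 2 genotypes did not overlap. In the vGluT2 IPs the slopes did overlap, at −0.269 to 0.0938 in controls and −0.253 to 0.491 in HD mice.

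The cell class labels were checked against driver genes and markers. Against total RNA, *Slc17a6* was 1.52 higher in cerebellar vGluT2 IPs and 0.97 higher in cerebral ones on the log2 scale, *Gad2* was 1.83 and 1.73 higher in the Gad2 IPs of the 2 regions, *Pvalb* was 2.38 higher in PV IPs and *Sst* 2.45 higher in SST IPs. The total RNA set against cerebral IPs, SST IPs among them, was of the Gad2, PV and vGluT2 lines. In cerebellar vGluT2 IPs 14 of 14 granule cell markers were higher than in total RNA, with a median log2 difference of 0.83. Cerebellar Gad2 IPs held more of 6 of 6 Purkinje cell markers and 7 of 7 interneuron markers, and less of 13 of 14 granule cell markers. So by driver genes the labels hold for these libraries, and cerebellar vGluT2 IPs carry mainly granule cell RNA by these markers. Cerebral IPs also held glial RNA. Oligodendrocyte markers summed to medians of 3288 CPM in control SST IPs, 2071 in PV IPs and 872 in Gad2 IPs, against 5986 in SST total RNA. Astrocyte markers summed to 2399, 1639, 638 and 5432 CPM in the same order. The part of glial RNA in the levels of the factors was not tested.

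Levels in control mice are given in CPM, scaled once over all libraries by the trimmed mean of M-values (TMM). *Neurod1*, which granule cells need to differentiate and survive, was at 707, 1067 and 1111 CPM (lowest, median, highest) in cerebellar vGluT2 IPs, 224, 353 and 448 in cerebellar total RNA, and 42.5, 65.4 and 119 in cerebellar Gad2 IPs. Cerebral vGluT2 IPs followed at 8.32, 24.0 and 28.3 CPM, and Gad2 IPs of the cerebrum were last at 1.35, 1.68 and 2.51. The 3 cerebellar classes did not overlap with each other or with the cerebrum, whereas neighbors within the cerebrum did, among them total RNA (median 9.67), SST IPs (5.19) and PV IPs (4.13). *Neurod2*, which excitatory neurons of the cortex also use, had less contrast: 298, 351 and 511 CPM in cerebellar vGluT2 IPs, then 109, 193 and 253 in cerebellar total RNA, 125, 149 and 176 in cerebral vGluT2 IPs and 120, 135 and 183 in cerebellar Gad2 IPs. The last 3 overlapped, and below them came cerebral total RNA (87.3), SST IPs (33.8), PV IPs (28.0) and cerebral Gad2 IPs (9.68).

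Of the zinc finger genes, *Zic1* was at 1284, 1530 and 1849 CPM in cerebellar vGluT2 IPs, 487, 673 and 916 in cerebellar total RNA and 226, 377 and 503 in cerebellar Gad2 IPs. The vGluT2 IPs stood above the rest, cerebellar total RNA and Gad2 IPs overlapped, and the 5 cerebral classes overlapped at medians of 29.7 (PV) to 50.9 CPM (SST). *Zic2* was at 434, 490 and 676 CPM in cerebellar vGluT2 IPs, 161, 214 and 269 in total RNA and 96.8, 120 and 156 in Gad2 IPs. These 3 did not overlap, and cerebral medians were 7.67 (PV) to 17.6 CPM (total RNA). *Zic4* was at 45.5, 57.7 and 69.5 CPM in cerebellar vGluT2 IPs, which overlapped with total RNA at 34.2, 41.7 and 46.8, and both were above Gad2 IPs at 13, 14.6 and 17.9. Cerebral medians of *Zic4* were 2.65 (PV) to 5.51 CPM (SST).

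*Pax6* showed the same cerebellar order without overlap: 160, 189 and 207 CPM in vGluT2 IPs, 57.2, 71.5 and 78.2 in total RNA, and 11.3, 17.2 and 36.3 in Gad2 IPs. In the cerebrum vGluT2 IPs were instead last and apart, at 0.856, 1.53 and 2.31. Above them came Gad2 IPs at a median of 7.33 CPM, total RNA at 6.69, SST IPs at 5.51 and PV IPs at 3.67, each range overlapping with the next. Over both genotypes Gad2 IPs were below total RNA, at medians of 6.78 and 7.21. *Etv1* was at 802, 956 and 1000 CPM in cerebellar vGluT2 IPs and 235, 451 and 608 in cerebellar total RNA, above all other classes. Cerebral vGluT2 IPs (median 115) and cerebellar Gad2 IPs (68.9) came next and overlapped, and cerebral Gad2 IPs were lowest at 30.4.

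The nuclear factor I genes had wider overlap. *Nfia* was at 106, 141 and 145 CPM in cerebellar vGluT2 IPs and 71.5, 105 and 142 in cerebellar total RNA, which overlapped, and then at medians of 42.1 in SST IPs, 30.5 in cerebellar Gad2 IPs and 10.7 in cerebral Gad2 IPs. *Nfib* was at 167, 208 and 225 CPM in cerebellar vGluT2 IPs, 90.7, 143 and 180 in cerebellar total RNA and 62.3, 91.8 and 131 in SST IPs, each range overlapping with the next. Cerebellar Gad2 IPs (64.9) came after PV IPs (66.6) for *Nfib*, and cerebral Gad2 IPs were last (40.1). *Nfix* was at 461, 622 and 674 CPM in cerebellar vGluT2 IPs and 301, 436 and 515 in cerebellar total RNA, followed by cerebellar Gad2 IPs at 231 and cerebral vGluT2 IPs at 214, which overlapped.

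**Figure D1:**
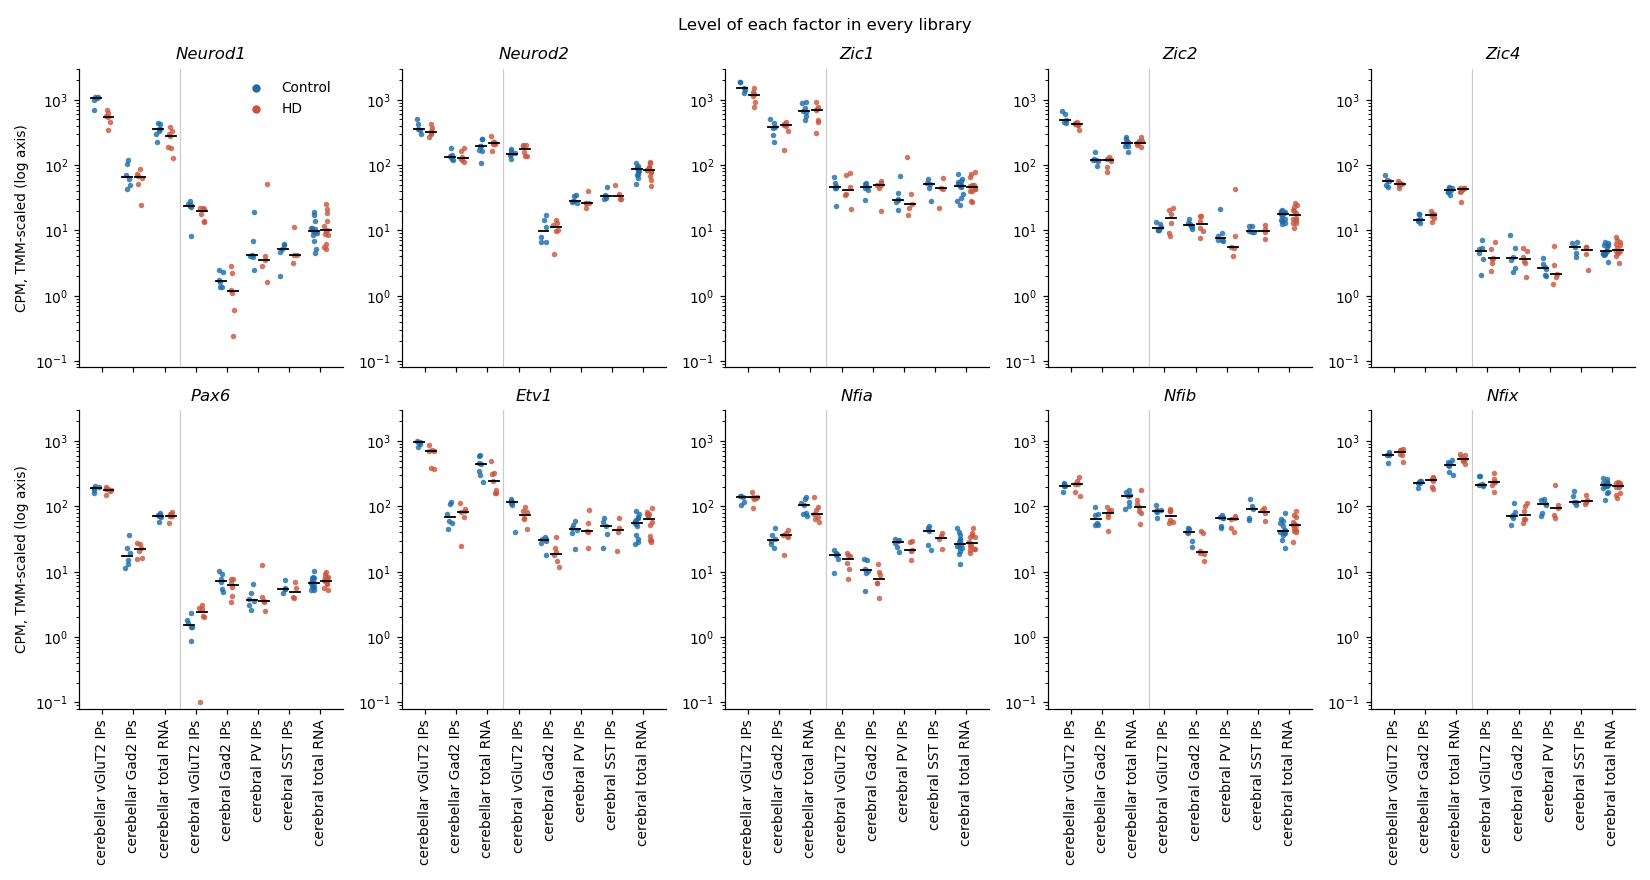
Level of each of the 10 factors in every library (CPM, TMM scaled, log axis), with a bar at the median of each group. A *Pax6* count of 0 is drawn at the foot of its panel.

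Levels of different genes were compared per kilobase of exon. In control cerebellar vGluT2 IPs *Neurod1* came first at a median of 391 CPM per kb, followed by *Zic1* (269), *Zic2* (170), *Neurod2* (112), *Nfix* (84.6), *Etv1* (71.9), *Pax6* (16.2), *Nfib* (13.9), *Nfia* (12.9) and *Zic4* (5.59). Ranges of neighbors could overlap, as for *Neurod1* (259 to 407) and *Zic1* (225 to 325). The order also rests on the length used: *Etv1* has 13296 bases of exon in all and 6576 in its longest transcript. In control cerebellar Gad2 IPs *Zic1* led at 66.3 CPM per kb, ahead of *Neurod2* (42.8), *Zic2* (41.8), *Nfix* (31.4) and *Neurod1* (23.9). So *Neurod1*, first in the vGluT2 IPs, came after 4 other factors there. Cerebral vGluT2 IPs were led by *Neurod2* at 47.4 CPM per kb and *Nfix* at 29.0, with *Neurod1* at 8.80 and *Pax6* lowest at 0.131.

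All 10 factors were higher in the cerebellum than in the cerebrum in each of the 3 comparisons made, HD and control mice together, by edgeR's quasi-likelihood test at a Benjamini-Hochberg adjusted p of 0.05 or less, the threshold for a call throughout. Among all genes tested the share called higher in the cerebellum was 36.5% for vGluT2 IPs, 34.4% for Gad2 IPs and 24.6% for total RNA. Between vGluT2 IPs the log2 differences were 6.59 for *Pax6*, 5.13 for *Neurod1*, 5.12 for *Zic2*, 4.81 for *Zic1*, 3.58 for *Zic4*, 3.08 for *Etv1*, 3.04 for *Nfia*, 1.38 for *Nfib*, 1.37 for *Nfix* and 1.11 for *Neurod2*. *Pax6* and *Neurod2* thus mark the ends, a 96.2-fold difference for the former. Between Gad2 IPs *Neurod1* (5.43) and *Neurod2* (3.72) differed most and *Nfib* (1.24) least, and *Pax6* differed by 1.66. In total RNA the log2 differences ran from 1.09 (*Nfib*) to 3.92 (*Zic1*) apart from *Neurod1*, at 4.8. The members were listed as granule cell factors, so a higher level in the cerebellum is a check of the list and no finding about it.

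Within the cerebellum, IPs were set against total RNA. In vGluT2 IPs 10 of 10 factors were called higher, where 32.3% of all genes were, and the median log2 difference was 0.81 against 0.00 over all genes tested. *Pax6* led at 1.25 (edgeR quasi-likelihood, Benjamini-Hochberg adjusted p = 8.46e-15), then *Neurod1* at 1.17, *Etv1* at 1.05, *Zic2* at 0.99, *Zic1* at 0.91, *Nfib* at 0.72 and *Neurod2* at 0.71. *Nfia* (0.41), *Zic4* (0.30) and *Nfix* (0.28) were nearest to total RNA, and with mouse as a block the last 2 were no longer called (edgeR, Benjamini-Hochberg adjusted p of 0.112 for *Zic4* and 0.0684 for *Nfix*). In Gad2 IPs 10 of 10 factors were called lower than in total RNA, where 32.6% of all genes were, with a median of −1.19 against 0.04 over all genes. *Neurod1* (−2.15) and *Etv1* (−2.14) were depleted most, followed by *Pax6* (−1.79), *Nfia* (−1.48), *Zic4* (−1.36), *Nfix* (−1.03), *Zic2* (−0.92), *Zic1* (−0.85), *Nfib* (−0.71) and *Neurod2* (−0.55). The 14 granule cell markers had a median of −1.97 there, so 2 of the 10 factors were depleted more than the median marker.

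In the cerebrum IPs were set against total RNA in the same way, and the counts of members called are given beside the share of all genes called in that direction. That total RNA was of the Gad2, PV and vGluT2 lines, so SST IPs were set against other mice. Total RNA of the SST line alone was an alternative, and each SST call given below held in it. In vGluT2 IPs 4 factors were called higher than in total RNA (30% of all genes): *Neurod2* by 0.93, *Neurod1* by 0.82, *Nfib* by 0.54 and *Etv1* by 0.52 on the log2 scale. Another 3 were called lower (33.6% of all genes): *Pax6* at −2.02, *Nfia* at −1.0 and *Zic2* at −0.41. IP and total RNA libraries share mice, and with mouse as a block 4 of these 7 calls were lost (edgeR, Benjamini-Hochberg adjusted p of 0.0661 for *Nfib*, 0.0723 for *Etv1*, 0.0518 for *Nfia* and 0.114 for *Zic2*), while the log2 differences kept their sign, at 0.61, 0.90, −0.91 and −0.36 in that order. Against total RNA of the vGluT2 line alone *Etv1* (0.126) and *Zic2* (0.227) were not called either, by the same edgeR test with Benjamini-Hochberg adjustment, and with DESeq2 size factors *Etv1* was not (0.0571). Gad2 IPs had 0 factors called higher (30.9% of all genes) and 7 called lower (32.7%), led by *Neurod2* at −2.93 and *Neurod1* at −2.77, and all 10 leaned lower, so 0 were higher at an unadjusted p under 0.05 too (7 members were called by DESeq2). PV IPs had 0 called higher (35.7%) and 4 called lower (37.5%), with *Neurod2* at −1.37, *Nfix* at −0.80, *Zic4* at −0.73 and *Pax6* at −0.52, and at an unadjusted p under 0.05 the same 4 by edgeR (4 members were called by DESeq2). The *Pax6* call there was lost with mouse as a block (−0.41, edgeR, Benjamini-Hochberg adjusted p = 0.139) and against total RNA of the PV line alone (−0.43, 0.176). Without the libraries over 20 CPM of granule cell genes *Neurod1* (−1.31) and *Zic2* (−1.10) joined them. SST IPs had 1 factor called higher (32.9%), *Nfib* at 0.90, and 4 called lower (32.3%), *Neurod2* at −1.03, *Neurod1* at −0.88, *Zic2* at −0.55 and *Nfix* at −0.50. Without the libraries over 20 CPM of granule cell genes *Nfib* was at 0.66 and not called (edgeR, Benjamini-Hochberg adjusted p = 0.0715). So *Neurod2* was low in all 3 GABAergic classes of the cerebrum, *Neurod1* in Gad2 and SST IPs and, without those libraries, in PV IPs.

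The vGluT2 and Gad2 IPs of the cerebellum were also compared with each other. All 10 factors were higher in vGluT2 IPs, where 34.7% of genes were, with a median log2 difference of 1.90 against 0.00 over all genes tested. *Neurod1* differed most at 3.40, a 10.5-fold difference (edgeR quasi-likelihood, Benjamini-Hochberg adjusted p = 1.18e-13), followed by *Etv1* (3.26) and *Pax6* (3.10), and after a gap by *Zic2* (1.98), *Nfia* (1.96), *Zic1* (1.83), *Zic4* (1.72), *Nfib* (1.5), *Nfix* (1.39) and *Neurod2* (1.34). Granule cell markers were higher in 14 of 14 cases, with a median of 2.94. Of the other lists, family paralogs were higher in 4 (*Zic5* by 1.86 and *Nfic* by 1.47 most) and lower in 2 of 6 tested (*Neurod6* −3.40, *Etv4* −0.96), and other rhombic lip factors were higher in 8 of 11. Lower were 9 of 9 cerebellar GABAergic factors, 6 of 6 Purkinje cell, 7 of 7 interneuron, 9 of 10 astrocyte, 8 of 8 oligodendrocyte and 6 of 6 microglia markers, and 4 of 6 driver genes, with 1 higher.

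How much of each factor the Gad2 IPs carry was expressed as a share of the median of the 11 vGluT2 IPs, in each of the 12 Gad2 libraries. The 4 granule reference genes were carried at medians of 12.3% (*Gabra6*), 12.6% (*Slc17a7*), 13.2% (*Cbln3*) and 14.6% (*Fat2*), and their geometric mean was 8.80% to 17.1% per library. *Neurod1* was carried at 3.48%, 9.46% and 17.2% (lowest, median, highest), *Etv1* at 3.04%, 9.91% and 14.6%, and *Pax6* at 6.16%, 11% and 19.8%. These 3 lay near the reference genes: *Neurod1* was above their mean in 1 library, *Pax6* in 4 and *Etv1* in 0 of 12. The other 7 were carried at more than the reference in 12 of 12 libraries. *Nfia* had a median share of 25.0% (12.9% to 33.3%), *Zic2* 27.1% (17.4% to 35.1%), *Zic4* 29.9% (24.6% to 37.5%) and *Zic1* 30.4% (13.4% to 38.9%). *Nfib* had 34.3% (19.1% to 44.9%), *Neurod2* 38.0% (32.4% to 52.8%) and *Nfix* 38.3% (29.8% to 45.4%). The shares thus form 2 sets, with no factor at a median between 11% and 25.0%. The median of the vGluT2 IPs holds both genotypes, and taken within each genotype the median share of *Neurod1* was 6.13% in controls and 11.9% in HD mice. *Etv1* went from 7.21% to 11.9% and *Pax6* from 9.09% to 12.3% in the same way, beside 10.9% and 12.8% for the reference genes. Within each genotype the other 7 were again above the reference in 6 of 6 libraries, and of the first 3 *Pax6* was in 2 control libraries and *Neurod1* in 1 HD library.

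**Figure D2:**
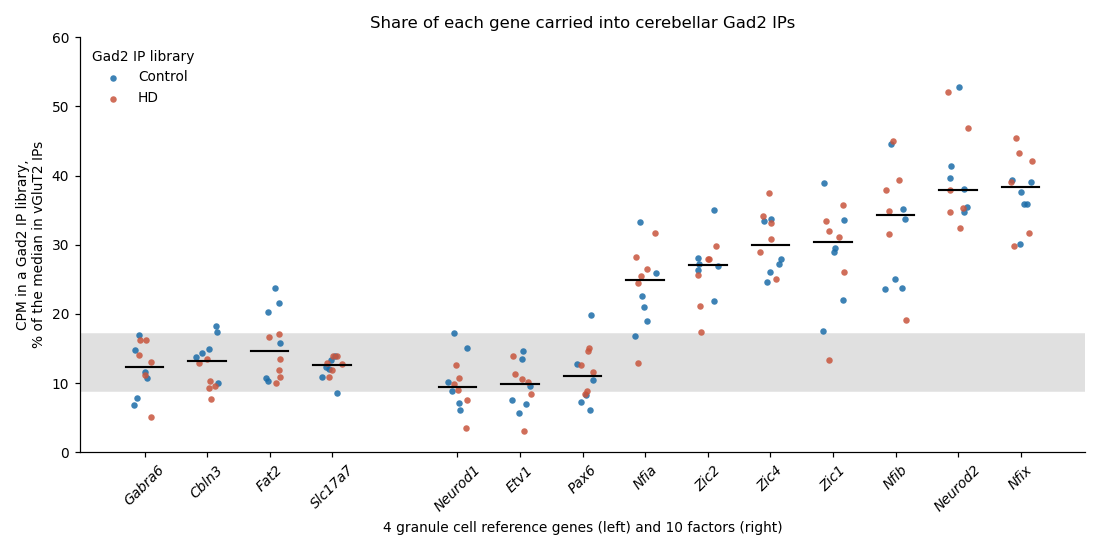
Share of the cerebellar vGluT2 IP level carried by each Gad2 IP library, for the 4 granule reference genes and the 10 factors, with a bar at the median. The gray band spans the reference genes' geometric mean over the 12 libraries.

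A fit scaled to the 4 reference genes put a test to these shares. By it *Neurod2* was 3.32-fold higher in Gad2 IPs than the reference share (edgeR quasi-likelihood, Benjamini-Hochberg adjusted p = 9.65e-11), *Nfix* 3.10-fold, *Nfib* 2.79-fold, *Zic4* 2.47-fold, *Zic1* 2.22-fold, *Nfia* 2.04-fold and *Zic2* 2.03-fold. *Neurod1* was called lower at a log2 difference of −0.43 (SE 0.140; edgeR quasi-likelihood, Benjamini-Hochberg adjusted p = 0.00456). *Etv1* (−0.31, edgeR, Benjamini-Hochberg adjusted p = 0.0594) and *Pax6* (−0.15, 0.219) were called in neither direction. This too rests on the reference and the mice used: *Etv1* was called lower in 4 of 8 alternatives (edgeR, Benjamini-Hochberg adjusted p of 0.0355 in control mice only, 0.0206 with 14 markers, 0.00740 with *Gabra6* alone and 0.0102 with *Fat2* alone). *Pax6* was called lower in 2 of 8, at −0.26 with 14 markers (edgeR, Benjamini-Hochberg adjusted p = 0.0180) and −0.42 with *Fat2* alone (0.00716), and was at 0.15 with *Cbln3* alone (0.211). These 7 higher and 1 lower stand beside 98.6% of all genes called higher and 0.172% lower. The median log2 difference was 1.09 for the members and 3.04 for all genes tested, so the members lie on the granule cell side of the table. The call for *Neurod1* rests on the reference: with *Cbln3* alone it was −0.14 (edgeR, Benjamini-Hochberg adjusted p = 0.329) and with *Slc17a7* alone −0.39 (0.0505). Of the 14 granule markers themselves 6 were called higher and 4 lower, *Tiam1* at 1.79, *Gabrd* at 0.98 and *Cntn2* at 0.84 among the former, and of the reference genes *Fat2* (0.26) was higher and *Cbln3* (−0.29) lower. Family paralogs were higher in 6 of 6, and other rhombic lip factors were higher in 6 and lower in 2 of 11 (*Barhl2* −0.58, *Uncx* −0.48). Higher were also 9 of 9 GABAergic factors, all 6 Purkinje, 7 interneuron, 10 astrocyte, 8 oligodendrocyte and 6 microglia markers, and 5 of 6 driver genes. Whether GABAergic cells make the added RNA of the 7 factors was not tested.

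Of the 10 factors *Neurod1* had the lowest adjusted p for an HD effect, and this was in cerebellar vGluT2 IPs. Its level was 995, 1111, 1104, 1067 and 707 CPM in control replicates 1 to 5, and 633, 536, 691, 454, 566 and 340 CPM in the 6 HD mice. All 6 HD mice were below all 5 controls, a separation that 2.31% of all genes show in that direction, and control replicate 5 was the lowest control by far. *Neurod1* fell to 0.549 of the control level in the fit, a log2 change of −0.87 (SE 0.156, edgeR quasi-likelihood with Benjamini-Hochberg adjusted p = 0.00914). It was the 1 factor of 10 called, where 2.11% of all genes were called (285 of 13487, and 149 to 255 genes with a library left out, 149 without control replicate 1). With each library left out in turn the change was −0.95 to −0.76 and the adjusted p 0.00640 to 0.0310, by the same edgeR test with Benjamini-Hochberg adjustment. In bulk IPs, fewer cells of a type and less RNA per cell cannot be told apart.

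The other 9 factors in these IPs were not called. *Etv1* was at 802, 956 and 1000 CPM in controls and 379, 700 and 858 in HD mice. The groups overlapped, with 5 of 6 HD mice below all controls, and the log2 change was −0.54 (edgeR, Benjamini-Hochberg adjusted p = 0.162). *Zic1* was at 1284, 1530 and 1849 CPM in controls and 764, 1191 and 1521 in HD mice, 4 of 6 of them below all controls, with a change of −0.44 (edgeR, Benjamini-Hochberg adjusted p = 0.172). *Zic2* was at 434, 490 and 676 CPM in controls and 340, 419 and 456 in HD mice, again 4 of 6 below all controls, with a change of −0.33 (edgeR, Benjamini-Hochberg adjusted p = 0.222). These 3 passed an unadjusted p under 0.05, and with correction for GC content and length *Etv1* (edgeR, Benjamini-Hochberg adjusted p = 0.0238) and *Zic1* (0.0462) were called as well. *Neurod2* (−0.18), *Zic4* (−0.11) and *Pax6* (−0.04) leaned lower and *Nfia* (0.07), *Nfib* (0.08) and *Nfix* (0.16) higher, none of them with a call. The median over the 10 was −0.14, against −0.01 over all genes tested.

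**Figure D3:**
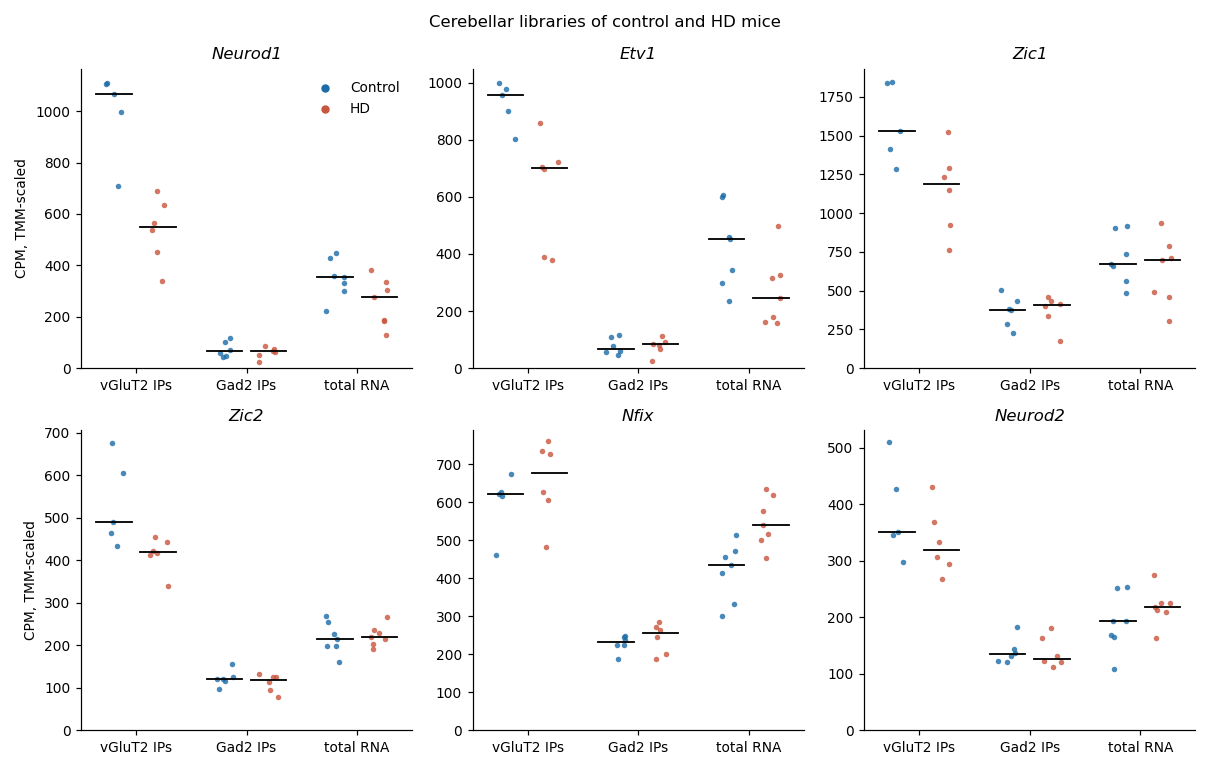
Levels of 6 of the factors in cerebellar vGluT2 IPs, Gad2 IPs and total RNA of control and HD mice (CPM, TMM scaled). Each point is a library, and bars are medians.

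Some granule cell markers fell beside *Neurod1* in these IPs. Of 14 markers 0 were called higher and 4 lower (*Grm4* −1.16, *Cbln3* −0.80, *Cbln1* −0.61, *Chn2* −0.56), and 10 were not called, 4 of them above 0, with a median log2 change of −0.16. Their summed level was 14687, 18710 and 20172 CPM in controls and 12966, 13364 and 15354 in HD mice, which overlap, and no marker was at 0. The most abundant was *Cbln3*, at a mean of 4746 CPM in controls and 2664 in HD mice. The 4 reference genes summed to 6568, 8696 and 9302 CPM in controls and 5105, 5892 and 6223 in HD mice, without overlap, though *Gabra6* (−0.37), *Fat2* (−0.18) and *Slc17a7* (−0.14) were not called. The part of this shift in the *Neurod1* result was not tested. Of the 11 other rhombic lip factors, 9 GABAergic factors, 6 Purkinje, 7 interneuron, 10 astrocyte, 8 oligodendrocyte and 6 microglia markers and 6 driver genes 0 were called by edgeR. At an unadjusted p under 0.05 these lists had 3, 1, 0, 1, 1, 1, 0 and 0 genes in that order, and DESeq2 called 665 genes in all against 285 by edgeR. Median log2 changes were −0.41 for interneuron markers (0 of 7 above 0) and 0.27 for microglia markers (5 of 6 above 0). They were −0.18 for astrocyte, −0.12 for oligodendrocyte and 0.01 for Purkinje cell markers, and −0.21 for driver genes.

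In cerebellar Gad2 IPs no factor was called. *Neurod1* was at 42.5, 65.4 and 119 CPM in controls and 24.0, 65.4 and 86.9 in HD mice, so the groups shared a median. Its log2 change was −0.30 (SE 0.299), and the other 9 factors lay between −0.16 (*Zic2*) and 0.14 (*Nfib*), each at an adjusted p of 1.0 by edgeR with Benjamini-Hochberg adjustment. The count called by edgeR was 0 of 10 members and 0.0142% of all genes (2 of 14098), with 0 members and 324 genes at an unadjusted p under 0.05 and 22 genes called by DESeq2. Whether the HD effect differs between the 2 classes was tested as an interaction, which called 0 members and 0.107% of genes by edgeR (0 members at an unadjusted p under 0.05, and 73 genes called by DESeq2). For *Neurod1* the vGluT2 effect was −0.58 (SE 0.370) relative to the Gad2 effect (edgeR with Benjamini-Hochberg adjusted p = 0.794), so a difference between the classes is not shown. *Etv1* (−0.53), *Zic1* (−0.45) and *Zic2* (−0.19) had smaller differences. Of the granule cell markers *Grm4* was called lower in Gad2 IPs (−0.87), and the other 13 were not.

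In cerebellar total RNA the called factor was *Nfix*, 1 of 10 where 24.5% of all genes were called (3544 of 14477). That share rests on single libraries: with 1 left out the genes called were 96 (without HD vGluT2 line replicate 4) to 7408 (without HD Gad2 line replicate 3). *Nfix* was at 301, 436 and 515 CPM in controls and 453, 540 and 635 in HD mice, which overlap, with 5 of 7 HD mice above all controls. The log2 change was 0.33 (SE 0.111, edgeR with Benjamini-Hochberg adjusted p = 0.0440), and the share called makes this no result particular to the members. The call held in 2 of 14 refits with a library left out, those without Gad2 line replicate 3 of the control (edgeR, Benjamini-Hochberg adjusted p = 0.0414) or of the HD mice (0.0199), and the other 12 gave 0.0508 to 0.0938. By line the change was 0.45 in the vGluT2 line (edgeR, Benjamini-Hochberg adjusted p = 0.0269) and 0.18 in the Gad2 line (1.0). Calls in the vGluT2 line alone stand among 7565 genes called in that fit, against 0 in the Gad2 line, so they are no result particular to the members either. *Etv1* was at 235, 451 and 608 CPM in controls and 158, 247 and 500 in HD mice, with a log2 change of −0.76 (SE 0.308, edgeR with Benjamini-Hochberg adjusted p = 0.0755). Its groups overlapped, and the change was −1.15 in the vGluT2 line, where it was called (edgeR, Benjamini-Hochberg adjusted p = 0.00648), as it was by DESeq2 over both lines (adjusted p = 0.0343), and −0.08 after correction for GC content and length. *Neurod1* leaned the same way as in the IPs, at 224, 353 and 448 CPM in controls and 129, 276 and 382 in HD mice, a log2 change of −0.51 (SE 0.244, edgeR with Benjamini-Hochberg adjusted p = 0.116). Over 7 alternatives that change ran from −0.68 to −0.0725, the latter with the correction for GC content and length, and was called in 0 of them by edgeR or DESeq2. With a library left out it was called in 1 of 14 refits, at −0.63 without HD Gad2 line replicate 3 (edgeR, Benjamini-Hochberg adjusted p = 0.0407). Without that library *Etv1* (−0.99), *Nfia* (−0.55) and *Nfib* (−0.66) were called as well, and *Etv1* also without control Gad2 line replicate 1 (−0.92). *Nfib* (−0.48), *Nfia* (−0.38) and *Zic1* (−0.24) were lower and *Neurod2* (0.15) higher without a call, and the median over the 10 was −0.17 against −0.01 over all genes.

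The GC slopes of these total RNA libraries differ by genotype in the vGluT2 line, as given above, and *Nfia* and *Nfib*, whose transcripts hold 42.4% and 44.8% GC, changed sign under the correction, where they were called higher at 0.64 (edgeR, Benjamini-Hochberg adjusted p = 0.00422) and 0.36 (0.0490). In the vGluT2 line alone, with its 7565 genes called, they were called lower at −0.73 (edgeR, Benjamini-Hochberg adjusted p = 0.00863) and −0.89 (0.00543). *Nfix* transcripts hold 58% GC and those of *Etv1* 44.7%. Under the correction *Nfix* was at 0.26 and lost its call (edgeR, Benjamini-Hochberg adjusted p = 0.0587). The part of transcript composition in the *Nfix* and *Etv1* values beyond this correction was not tested. Of the other lists in total RNA, granule cell markers were called higher in 3 and lower in 4 of 14, family paralogs higher in 2 of 6, other rhombic lip factors higher in 1 of 11, GABAergic factors lower in 2 of 9, Purkinje cell markers lower in 2 of 6 and interneuron markers lower in 5 of 7. Astrocyte markers were lower in 3 of 10, oligodendrocyte markers higher in 1 and lower in 2 of 8, microglia markers higher in 3 of 6 and driver genes lower in 2 of 6.

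No factor was called in the cerebrum. In vGluT2 IPs edgeR called 0 of 10 members and 0.00697% of genes (members at an unadjusted p under 0.05: 0, genes: 1045, and DESeq2 called 25 genes), with log2 changes of −0.50 (*Etv1*) to 0.41 (*Pax6* and *Zic2*). Over 7 alternatives *Etv1* ran from −0.50 to −0.23. The 4 granule reference genes had a median change of 1.57 there. HD replicates 1 and 4 of these IPs held 42.9 and 39.1 CPM of *Gabra6*, *Cbln3* and *Fat2*. For Gad2 IPs edgeR called 0 members and 0.0279% of genes (unadjusted: 1 member and 1313 genes, DESeq2: 75 genes), with *Nfib* at −0.58 and *Etv1* at −0.54 (Benjamini-Hochberg adjusted p = 0.536). The *Etv1* value ran from −0.59 to −0.27 over 5 alternatives. In PV IPs edgeR called 0 members and 0.034% of genes (unadjusted: 0 members and 630 genes; DESeq2: 42 genes). *Neurod1* was at 2.88, 51.1, 4.09, 3.54 and 1.61 CPM in the 5 HD mice and 2.5, 4.13 and 19.3 CPM in controls, a log2 change of 0.88. The 51.1 CPM of HD replicate 3 and the 19.3 CPM of control replicate 2 belong to the 2 libraries with most granule cell RNA by its markers, and without the libraries over 20 CPM of such genes the change was −0.23. In SST IPs edgeR called 0 members and 0% of genes (unadjusted: 0 members and 207 genes, DESeq2: 2 genes), with log2 changes of −0.26 (*Zic4*) to 0.25 (*Neurod1*). HD replicate 2 was at 11.1 CPM of *Neurod1*, against 3.17 to 4.27 in the other HD mice. It also held the most granule cell RNA of the SST IPs, at 52.35 CPM of *Gabra6*, *Cbln3* and *Fat2*. Cerebral total RNA had 0 members and 0.141% of genes called by edgeR (unadjusted: 0 members and 984 genes, DESeq2: 119 genes), with changes of −0.06 (*Nfix*) to 0.43 (*Neurod1*). This fit holds libraries over 20 CPM of granule cell genes. They are replicate 2 of the HD Gad2 line (97.7), HD PV line (92.2) and control Gad2 line (83.6), and control PV line replicate 1 (24.6). Without such libraries 2 genes were called. In these 5 cerebral comparisons none of the other lists had a gene called by edgeR either, the granule cell markers with 3, 0, 0, 0 and 3 of 14 at an unadjusted p under 0.05.

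**Figure D4:**
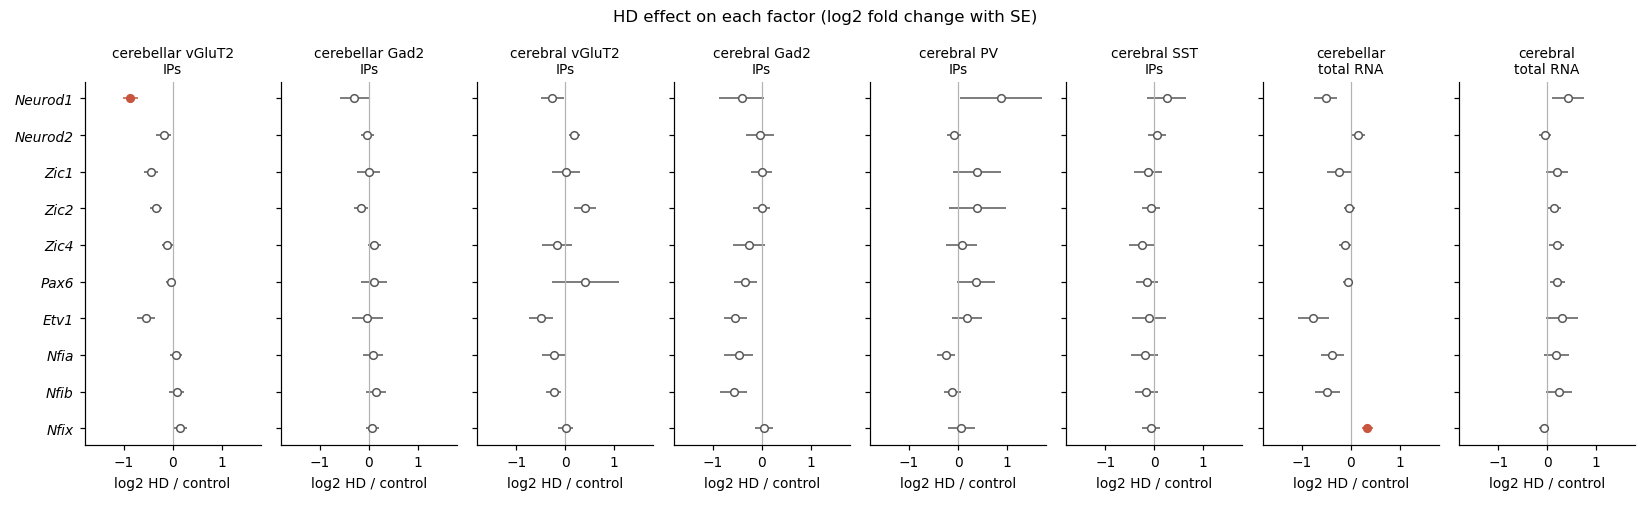
Log2 HD effect of each factor in the 8 comparisons, with its SE. Filled points are called by edgeR at a Benjamini-Hochberg adjusted p of 0.05 or less.

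Across the 67 IP libraries the patterns of the members differed. Pearson correlations of log2 levels between pairs of members ran from 0.528 (*Neurod2* and *Pax6*) to 0.987 (*Zic1* and *Zic2*). These are descriptions over libraries that share classes, regions and mice. Among 10968 genes the one most like *Zic1* was *Zic2*, followed by *Zic5* (0.986) and *Zic4* (0.974), all in the same family. *Zic2* was most like *Zic1*, *Zic5* (0.978) and *A930017K11Rik* (0.976), and *Zic4* most like *Zic1*, *Zic5* (0.968) and *Ss18* (0.965). *Neurod1* was most like *Cnksr3* (0.966), *Barhl2* (0.963), a rhombic lip factor, and *Lhfp* (0.962). *Pax6* was most like *Chn2* (0.978), *Epb41* (0.9747) and *Myt1* (0.967), and *Etv1* most like *Cadps2* (0.964), *Epha3* (0.959) and *Camk2d* (0.955), where *Chn2* and *Cadps2* are granule cell markers. *Neurod2* was nearest to *Nptx1* (0.927), *Pak1* (0.923) and *Nfix* (0.922). For *Nfix* itself the nearest were *Boc* (0.960), *Cbfa2t3* (0.937) and *Zbtb18* (0.934). *Nfia* was nearest to *Rnf152* (0.949), *Maml2* (0.935) and *Tet1* (0.935), and *Nfib* to *Setbp1* (0.918), *Nr3c1* (0.918) and *Psd3* (0.914).

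Promoter sequence from RefSeq (GRCm38.p6) was found for 8 of 10 members, and *Zic2* and *Nfib* are named only. Those of *Neurod1* and *Neurod2* are shown because this pair of relatives differed in the share carried into Gad2 IPs (9.46% and 38.0%) and in the HD call, and that of *Zic1* because the *Zic* genes moved together and *Zic1* starts within *Zic4* on the other strand. The stretches lie upstream of the annotated transcripts, at chr2:79456786-79456886 for *Neurod1* (66.3% GC, within *Gm26755* on the plus strand), chr11:98329649-98329895 for *Neurod2* (247 bases, 53.0% GC) and chr9:91365811-91366018 for *Zic1* (208 bases), all read 5′ to 3′ on the minus strand. Capitals mark matches, on either strand, of the E-box CATCTG, the longer CCTGCTG that Zic proteins prefer, the nuclear factor I motif TTGGC, the GC box GGGCGG or the TATA motif TATAAA.
Neurod1: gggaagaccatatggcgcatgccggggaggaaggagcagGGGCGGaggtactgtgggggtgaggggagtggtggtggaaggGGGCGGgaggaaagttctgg
Neurod2: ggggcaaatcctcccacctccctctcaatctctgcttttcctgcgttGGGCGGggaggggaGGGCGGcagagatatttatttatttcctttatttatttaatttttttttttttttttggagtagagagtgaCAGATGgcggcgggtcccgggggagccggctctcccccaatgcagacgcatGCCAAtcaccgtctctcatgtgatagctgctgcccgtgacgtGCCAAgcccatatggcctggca
Zic1: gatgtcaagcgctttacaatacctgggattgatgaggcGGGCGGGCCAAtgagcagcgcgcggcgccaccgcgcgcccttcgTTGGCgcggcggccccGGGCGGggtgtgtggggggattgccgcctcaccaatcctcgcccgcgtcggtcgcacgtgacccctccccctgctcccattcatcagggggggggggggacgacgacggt
*Neurod1* holds 2 matches of GGGCGG, *Neurod2* holds 2 of GGGCGG, 2 of TTGGC (read as GCCAA) and 1 of CATCTG (read as CAGATG), and *Zic1* holds 2 of GGGCGG and 2 of TTGGC, where the first 2 matches touch. Of 32851 promoters read to the length of the *Neurod1* stretch, 10.6% hold GGGCGG, 17.7% TTGGC, 6.09% CATCTG, 3.18% CCTGCTG and 5.28% TATAAA. At the 247 bases of *Neurod2* the shares are 32.3%, 41.2%, 14.4%, 8.31% and 12.3%, and at the 208 bases of *Zic1* 26.2%, 36.2%, 12.3%, 7.06% and 9.47%. A match is a description of letters and says nothing of binding.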

How the data were processed

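Ribosome-bound RNA (anti-HA RiboTag IP) and total RNA were measured in 106 stranded poly(A) libraries from 45 mice. The authors made paired reads into estimated counts (expected counts) per gene with nf-core/rnaseq (STAR and Salmon, ERCC spike-ins and the HA tag added to the reference), and deposited them without normalization. The build named is GRCm38.p6 and the annotation release is not stated. Of the values 8.57% were not whole, and all were rounded. Library totals were 21905221 to 107753586 (median 35866725), and spike-ins, at most 4.45% of a library, were left out. Identifiers were matched to GENCODE M21 (55141 of 55401).

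Tests by edgeR 4.0.16 covered protein-coding genes whose mean count among those libraries exceeded 10 (quasi-likelihood, TMM scaling), and p-values were adjusted by Benjamini-Hochberg over all genes tested. Total RNA fits held the Cre line as a term, and fits across classes or regions the genotype. HD and control mice are different animals, and replicate numbers were checked as pairs. Of 29 pairs 15 had a correlation over 0.1, from −0.60 to 0.82. The pairs ran from −0.40 to 0.23 in cerebellar vGluT2 IPs and from −0.45 to 0.82 in cerebellar Gad2 IPs. In cerebral Gad2 IPs they ran from −0.57 to 0.76. The main fits are not paired, and for HD effects the replicate number as a block was an alternative. What the close pairs share was not tested. Alternatives were DESeq2 1.42.0, DESeq2 size factors, no filter, blocks, other total RNA, other reference genes, control mice only, and each library left out. Correction for GC content and length, each cerebellar line alone, and leaving out cerebral libraries with granule cell genes over 20 CPM were chosen after seeing the data. Work was done in R 4.3.3 (limma 3.58.1) and in Python 3.11.15 (matplotlib 3.10.9, pandas 2.3.3, numpy 2.4.6), and the fits were tested on simulated data.

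The members and lists were chosen with earlier results of these data known. The lists are granule markers and reference genes, family paralogs, other rhombic lip factors, cerebellar GABAergic factors, Purkinje, interneuron, astrocyte, oligodendrocyte and microglia markers and driver genes. Named are all 10 members, of the lists up to 4 called genes with the largest absolute log2 change, and per member the 3 genes most alike (Pearson r of log2(CPM + 1), mean of at least 5 CPM). Named outside that rule, after their values were seen, are genes that check a label or a reference and the single genes called in a list. The HD result of the family paralogs in cerebellar vGluT2 IPs is not reported.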

Additional observations from a re-analysis of the deposited data

Results flagged for a closer look

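Within each group of 4 to 10 libraries, each member was tested for 1 library far from the others. Dixon's test on CPM, not on a log scale, was used (150 tests) and marked 21 values in 12 libraries. Chance marks about 1 in 20 groups.

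HD PV IP replicate 3 was the high one in its group for 6 members: *Neurod1* at 51.1 CPM, *Neurod2* at 40.3, *Zic1* at 131, *Zic2* at 43.6, *Pax6* at 12.5 and *Nfix* at 211. Control PV IP replicate 2 was high for *Neurod1* at 19.3 CPM, *Zic1* at 67.0 and *Zic2* at 21.6. These 2 libraries also hold the most *Gabra6*, *Cbln3* and *Fat2* of the 69 cerebral libraries (362 and 141 CPM in sum), and the part of cerebellar RNA in these values was not tested.

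In cerebellar vGluT2 IPs control replicate 5 was low for *Neurod1* at 707 CPM and for *Nfix* at 461 CPM, and HD replicate 2 was low for *Zic2* at 340 CPM. Without control replicate 5 the HD change of *Neurod1* was −0.95 on the log2 scale. Cerebellar total RNA of the vGluT2 line had HD replicate 1 apart for *Pax6* at 55.3 CPM. In cerebellar Gad2 IPs control replicate 2 was high for *Neurod2* at 183 CPM.

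In cerebral vGluT2 IPs control replicate 1 was low for *Neurod1* at 8.32 CPM and *Etv1* at 40.4 CPM. The re-sequenced HD library of these IPs, labeled re1 and from another mouse than HD replicate 1, held a *Pax6* count of 0. HD replicate 4 of the cerebral Gad2 IPs was low for *Zic1* at 20.04 CPM. In SST IPs HD replicate 2 was high for *Neurod1* at 11.1 CPM and control replicate 1 was high for *Neurod2* at 46.0 CPM, and in SST total RNA control replicate 4 was apart for *Nfia* at 40.5 CPM.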

How the results depend on the processing

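Of 1190 values under the alternatives other than leaving out a library, 1095 kept their sign and their side of the threshold, 18 lost a call, 20 gained one, 55 changed sign without a call in either fit, and 2 changed sign and were called only in the alternative. Of 1220 values with a library left out, 1131 kept both, 12 lost a call, 5 gained one and 72 changed sign without a call. Without TMM, 29 of 30 group levels moved by under 1 SD. Where a result below changed, the cause was not tested.

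The fall of *Neurod1* in cerebellar vGluT2 IPs was called in 5 of 5 alternatives (log2 −0.87 to −0.75, edgeR or DESeq2 with Benjamini-Hochberg adjusted p from 1.57e-05 to 0.0417) and in 11 of 11 refits with a library left out (−0.95 to −0.76). The genes called there, 285, were 665 by DESeq2, 108 with the replicate number as a block and 748 with the correction for GC content and length, under which 3 members were called. With a library left out they were 149 (without control replicate 1) to 255 (without HD replicate 4), and 173, 169 and 188 without control replicates 2, 3 and 4, 152 without HD replicate 1 and 173 without HD replicate 5. *Pax6* ran from −0.0751 to 0.00220 there with a library left out.

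In cerebellar Gad2 IPs the 2 genes called were 22 by DESeq2, 1 with DESeq2 size factors, 1 without the filter, 0 with the block, 1 with the GC correction and 0 without the re-sequenced library, and 0 to 3 with a library left out. Uncalled members changed sign there with a library left out: *Etv1* ran from −0.17 to 0.15, *Neurod2* from −0.13 to 0.0613, *Zic1* from −0.11 to 0.14 and *Pax6* from −0.0133 to 0.39. The interaction of class and genotype called 15 genes, 73 by DESeq2, 68 with the GC correction and 13 to 25 with a library left out.

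Cerebellar total RNA changed most between the alternatives run. Its 3544 genes called were 36 with the replicate block, 0 in the Gad2 line alone and 7565 in the vGluT2 line alone, and 96 (without HD vGluT2 line replicate 4) to 7408 (without HD Gad2 line replicate 3) with a library left out, moved by over 1.5 times in 11 of 14 such refits. The 1 member called became 2 by DESeq2, 0 without the filter, 0 with the block, 2 with the GC correction, 0 in the Gad2 line and 4 in the vGluT2 line, and 0 to 5 with a library left out. With the GC correction *Nfix* lost its call (0.26, edgeR, Benjamini-Hochberg adjusted p = 0.0587), and the 2 called were *Nfia* and *Nfib* with the other sign. *Nfia* changed sign to 0.64 with the GC correction (edgeR, Benjamini-Hochberg adjusted p = 0.00422) and 0.0844 in the Gad2 line (1.0), and *Nfib* to 0.36 (0.0490) and 0.0619. In the vGluT2 line alone both were called lower (*Nfia* −0.73, *Nfib* −0.89), as was *Etv1* (−1.15), which DESeq2 called over both lines.

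In cerebral vGluT2 IPs the 1 gene called became 25 by DESeq2, 0 with DESeq2 size factors, 0 without the filter, 0 with the block, 2 with the GC correction and 0 without libraries over 20 CPM of granule cell genes, and 0 to 1 with a library left out. Cerebral Gad2 IPs went from 4 to 75 by DESeq2, 9 with the block, 37 with the GC correction and 3 to 12 with a library left out. PV IPs went from 5 to 42 by DESeq2, 0 with the block, 17 with the GC correction, 0 without the granule libraries and 0 to 4 with a library left out. *Neurod1* in PV IPs reversed to −0.23 without the granule libraries, and ran from −1.17 (without HD replicate 3) to 1.55 (without control replicate 2). SST IPs went from 0 to 2 by DESeq2, 1 with the block and 0 to 1 with a library left out. Cerebral total RNA went from 21 to 119 by DESeq2, 13 with the block, 209 with the GC correction, 96 with SST total RNA added, 2 without the granule libraries and 4 to 43 with a library left out.

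All 10 members stayed higher in the cerebellum than in the cerebrum, and in cerebellar vGluT2 than Gad2 IPs, under each alternative run. Against total RNA, cerebral vGluT2 IPs had 6134 genes and 3 members called with mouse as a block (*Nfib*, *Etv1*, *Nfia* and *Zic2* lost their calls, at 0.61, 0.90, −0.91 and −0.36), and SST IPs 5896 genes without the granule libraries. In the fit scaled to reference genes *Pax6* reversed to 0.15 with *Cbln3* alone and was called lower at −0.42 with *Fat2* alone and −0.26 with 14 markers, and *Etv1* was called lower in 4 of 8 alternatives.

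Limits: groups hold 4 to 7 mice for HD effects outside cerebral total RNA, and IPs are bulk, so cell number and RNA per cell cannot be told apart. A member without a call is not shown to be unchanged. Depth bears on low levels: the lowest *Neurod1* count in a library was 9. The *Pax6* count of 0 came from a library of 60611444 counts, above the median. Total RNA of the vGluT2 line differs between genotypes in its GC slope. Granule cell markers differ among themselves in the share carried into Gad2 IPs, with medians from 5.68% (*Ntf3*) to 43.5% (*Tiam1*), so a share above that of the 4 reference genes does not by itself set a factor apart from granule cell genes.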
